A study of Rattus norvegicus with 10 samples.

Results

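The genes described are 10 sensors, transcription factors and chaperones of the unfolded protein response: Hspa5, Hsp90b1, Calr, Xbp1, Ern1, Ern2, Atf6, Dnajb9, Sdf2l1 and Creld2. They were chosen by symbol, each matched 1 row of a table of 23422 genes, and all 10 passed the filter on low counts. RNA was sequenced from epithelial cells that EDTA had released from the distal segment of the colon, in male rats of the Wistar Munich strain whose age the labels do not give. The 5 control rats (1, 2, 5, 6 and 9) ate standard chow, and the 5 cholate rats (3, 4, 7, 8 and 11) ate the same chow with 1% w/w sodium cholate, the salt of a primary bile acid, for 10 days after 3 days of acclimatization. Of 12 rats housed, 6 on cholate, 5 per diet were sequenced, those whose RNA was most concentrated, so the choice of rats was not random. The comparison asked how a diet rich in bile acid changed expression in the colon epithelium.

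The unfolded protein response adjusts the folding capacity of the endoplasmic reticulum (ER) to its load of secreted and membrane proteins. Ern1 and Ern2 encode the IRE1 alpha and beta sensors, membrane kinases with an RNase domain, and the beta form is known mainly from the epithelium of the gut and airways. IRE1 splices the mRNA of Xbp1, and the product of the spliced form is a transcription factor. Atf6 encodes a membrane-bound factor that is cut in the Golgi under stress and then enters the nucleus. The targets of both include the chaperones Hspa5 (BiP), Hsp90b1 (endoplasmin) and Calr (calreticulin), the BiP co-chaperones Dnajb9 and Sdf2l1, and the secreted ER stress protein Creld2. Goblet cells, which secrete mucin, are known to carry a high load of ER protein.

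The promoters are shown first, with a DNA element that some of them share. Whether this element bears on the levels given below was not tested. The ER stress response element (ERSE), known as a binding site of ATF6 and XBP1 together with NF-Y, has the letters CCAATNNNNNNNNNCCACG. It was searched on both strands in RefSeq promoter windows of GRCr8, 250 bases before to 50 after the annotated start, which 8 of the 10 genes had (not Ern1 and Atf6). It lay in 5 of these 8 windows, those of Hspa5, Hsp90b1, Calr, Xbp1 and Creld2, against 0.0657% of all 33469 windows and 0.134% of the 11206 windows of genes tested. The genes were chosen by symbol and include known targets of these factors. A share above that of all windows was therefore likely from the choice, and is no result about these genes. Also searched were the related ERSE-II (ATTGG and CCACG with 1 base between them) and the unfolded protein response element, in the letters TGACGTGG only. Neither was in any of the 8 windows, so no ERSE match overlapped them. They lay in 0.0508% and 0.595% of all windows. The letters TGACGTGA, which differ in the last base, were not searched, and the Hspa5 window printed below holds them. The matches are printed 5′ to 3′ on the strand of the gene, with the fixed letters of the element in capitals. Hsp90b1 holds 1 match in each orientation.
Hspa5: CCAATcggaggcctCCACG
Hsp90b1, forward: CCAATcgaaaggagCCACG
Hsp90b1, reverse: CGTGGtgaggcacgATTGG
Calr, reverse: CGTGGtcgaccctgATTGG
Xbp1: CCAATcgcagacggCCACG
Creld2, reverse: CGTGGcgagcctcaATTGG

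Counted in bases from the annotated start, the matches began at -43 in Hspa5, -65 in Xbp1, -145 in Creld2 and -232 in Calr, and at -176 and -72 in Hsp90b1. The whole windows of the 5 genes with the element follow, and then those of Sdf2l1 and Ern2, which hold none and are shown for contrast. The windows are Hspa5 on chr3:38452766-38453065 (plus strand), Hsp90b1 on chr7:23012244-23012543 (minus strand), Xbp1 on chr14:84604373-84604672 (plus strand), Creld2 on chr7:121789134-121789433 (plus strand), Calr on chr19:40213117-40213416 (plus strand), Sdf2l1 on chr11:97376628-97376927 (plus strand) and Ern2 on chr1:186174472-186174771 (minus strand). Capitals again mark the fixed letters of the ERSE.
Hspa5: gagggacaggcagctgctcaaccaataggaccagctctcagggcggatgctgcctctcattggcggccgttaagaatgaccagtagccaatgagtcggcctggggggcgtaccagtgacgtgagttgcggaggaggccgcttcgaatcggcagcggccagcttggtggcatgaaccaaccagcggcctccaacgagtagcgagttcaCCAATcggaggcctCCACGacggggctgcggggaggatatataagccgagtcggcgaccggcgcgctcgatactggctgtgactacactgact
Hsp90b1: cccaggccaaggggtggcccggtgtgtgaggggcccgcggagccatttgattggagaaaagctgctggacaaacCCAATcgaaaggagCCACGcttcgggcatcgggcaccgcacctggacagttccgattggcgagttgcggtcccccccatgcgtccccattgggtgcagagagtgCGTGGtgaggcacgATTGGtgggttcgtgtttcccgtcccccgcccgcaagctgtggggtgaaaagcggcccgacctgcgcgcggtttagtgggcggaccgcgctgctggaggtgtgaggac
Xbp1: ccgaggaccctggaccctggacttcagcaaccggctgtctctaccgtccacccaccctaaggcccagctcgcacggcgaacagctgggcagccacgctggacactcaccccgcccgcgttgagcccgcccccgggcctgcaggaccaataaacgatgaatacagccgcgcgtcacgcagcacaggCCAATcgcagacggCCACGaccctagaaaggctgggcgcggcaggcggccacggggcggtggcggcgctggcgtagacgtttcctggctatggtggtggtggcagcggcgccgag
Creld2: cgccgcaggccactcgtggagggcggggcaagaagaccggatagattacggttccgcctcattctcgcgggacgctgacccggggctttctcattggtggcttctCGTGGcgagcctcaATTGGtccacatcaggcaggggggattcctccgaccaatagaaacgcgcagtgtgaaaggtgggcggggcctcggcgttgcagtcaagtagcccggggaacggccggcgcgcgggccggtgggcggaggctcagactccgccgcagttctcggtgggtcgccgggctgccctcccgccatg
Calr: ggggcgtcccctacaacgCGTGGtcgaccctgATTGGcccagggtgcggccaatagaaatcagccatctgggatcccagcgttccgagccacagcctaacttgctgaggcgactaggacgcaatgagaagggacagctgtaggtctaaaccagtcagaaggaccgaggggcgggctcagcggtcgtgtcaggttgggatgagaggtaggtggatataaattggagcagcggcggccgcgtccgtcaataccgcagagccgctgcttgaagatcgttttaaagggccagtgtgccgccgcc
Sdf2l1: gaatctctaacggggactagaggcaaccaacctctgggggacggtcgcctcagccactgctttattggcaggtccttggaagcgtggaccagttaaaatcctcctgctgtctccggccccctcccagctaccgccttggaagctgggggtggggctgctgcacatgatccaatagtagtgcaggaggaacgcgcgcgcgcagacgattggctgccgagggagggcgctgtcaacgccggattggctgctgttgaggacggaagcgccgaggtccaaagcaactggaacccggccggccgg
Ern2: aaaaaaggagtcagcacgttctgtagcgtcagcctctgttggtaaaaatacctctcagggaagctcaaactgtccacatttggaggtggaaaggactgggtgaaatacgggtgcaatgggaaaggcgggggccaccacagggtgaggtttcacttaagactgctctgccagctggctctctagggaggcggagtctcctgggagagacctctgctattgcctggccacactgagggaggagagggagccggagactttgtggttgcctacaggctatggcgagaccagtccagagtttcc

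A match shows only that these letters are present, and a window without one says nothing of binding elsewhere. Over all 10 rats 0 of the 5 genes with the element passed an adjusted p of 0.05, which 13.8% of all genes tested did. In the fit without the 3 libraries described below, Hspa5, Hsp90b1 and Creld2 passed it and Calr and Xbp1 did not, where 29.4% of all genes passed and 13.6% were higher on cholate. Sdf2l1, which has no match in its window, also passed there.

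**Figure D1:**
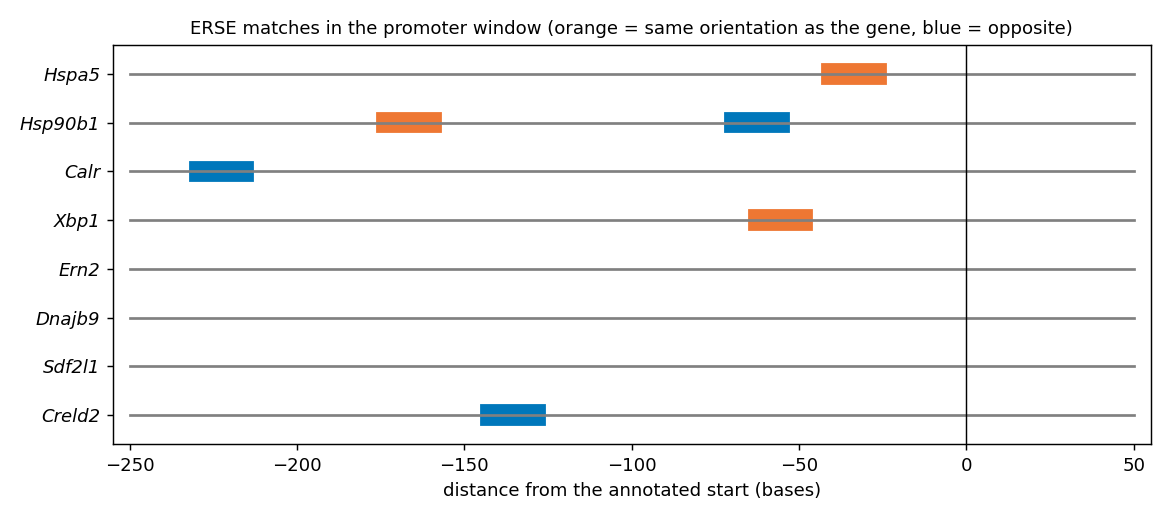
Position of the ERSE matches in the promoter windows of the 8 genes that had one, with the distance from the annotated start in bases on the x axis. Boxes are matches, orange in the orientation of the gene and blue in the other, and 5 genes have at least 1.

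Libraries held from 14337356 to 45285762 counts, and counts of the 10 genes ran from 63 (Ern1, cholate rat 8) to 66823 (Hspa5, cholate rat 4). Levels are TMM-scaled CPM, the count of a gene per scaled total of its library. Each change is on the log2 scale, positive where cholate was higher, and its standard error (SE) is approximate. Adjusted p values are from the edgeR quasi-likelihood test over all 12385 genes tested. Genes were counted as called by the study's criteria (more than 2-fold at an adjusted p under 0.01) and, more widely, as past an adjusted p of 0.05 at any fold. The libraries of control rat 9 and cholate rats 8 and 11 stood apart from the other 7. In these 3, genes with long transcripts were low against genes with short ones, by 0.78, 1.29 and 0.93 on the log2 scale (index of -0.78, -1.29 and -0.93), while the other 7 had an index between -0.04 and 0.35. They also took 1 end of the first principal component, which held 46.8% of the variance. The differences of the 10 genes, and of the named genes of other lists, are therefore given over all 10 rats and also without these 3, as 4 controls against 3 cholate rats, an alternative chosen after the values were seen. The epithelial markers Epcam, Cdh1, Krt8, Krt18, Krt19, Vil1, Cdx1 and Cdx2 were present in every library, with a summed level of 12359 to 17169 CPM in controls and 15245 to 22357 CPM on cholate.

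Over all 10 rats 0 of the 10 genes were called by the study's criteria, where 3.21% of all genes tested were, and 0 passed an adjusted p of 0.05, where 13.8% of all genes did (6.48% higher on cholate). At an unadjusted p under 0.05 there were 2 of the 10, Hsp90b1 and Sdf2l1, against 29.0% of all genes. DESeq2 placed the same 2 genes past an adjusted p of 0.05, at 0.0492 and 0.0453, where 21.6% of all genes passed it. Without control rat 9 alone, 4 of the 10 passed (17.0% of all genes, 8.41% higher), and with a library's long-transcript index as a covariate 5 passed (43.7% of all genes, 22.4% higher). The log2 fold change was above 0 in 8 of the 10 genes and in 48.9% of all genes, and its median was 0.47 against -0.01. Without the 3 libraries, 5 of the 10 passed an adjusted p of 0.05, all higher on cholate, where 29.4% of all genes passed it and 13.6% were higher. These were Atf6, Hspa5, Hsp90b1, Creld2 and Sdf2l1. Hspa5 and Atf6 also met the study's criteria there, which 6.66% of all genes did (2.03% higher). In bulk RNA, a smaller number of cells of a type and less RNA per cell cannot be told apart.

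**Figure D2:**
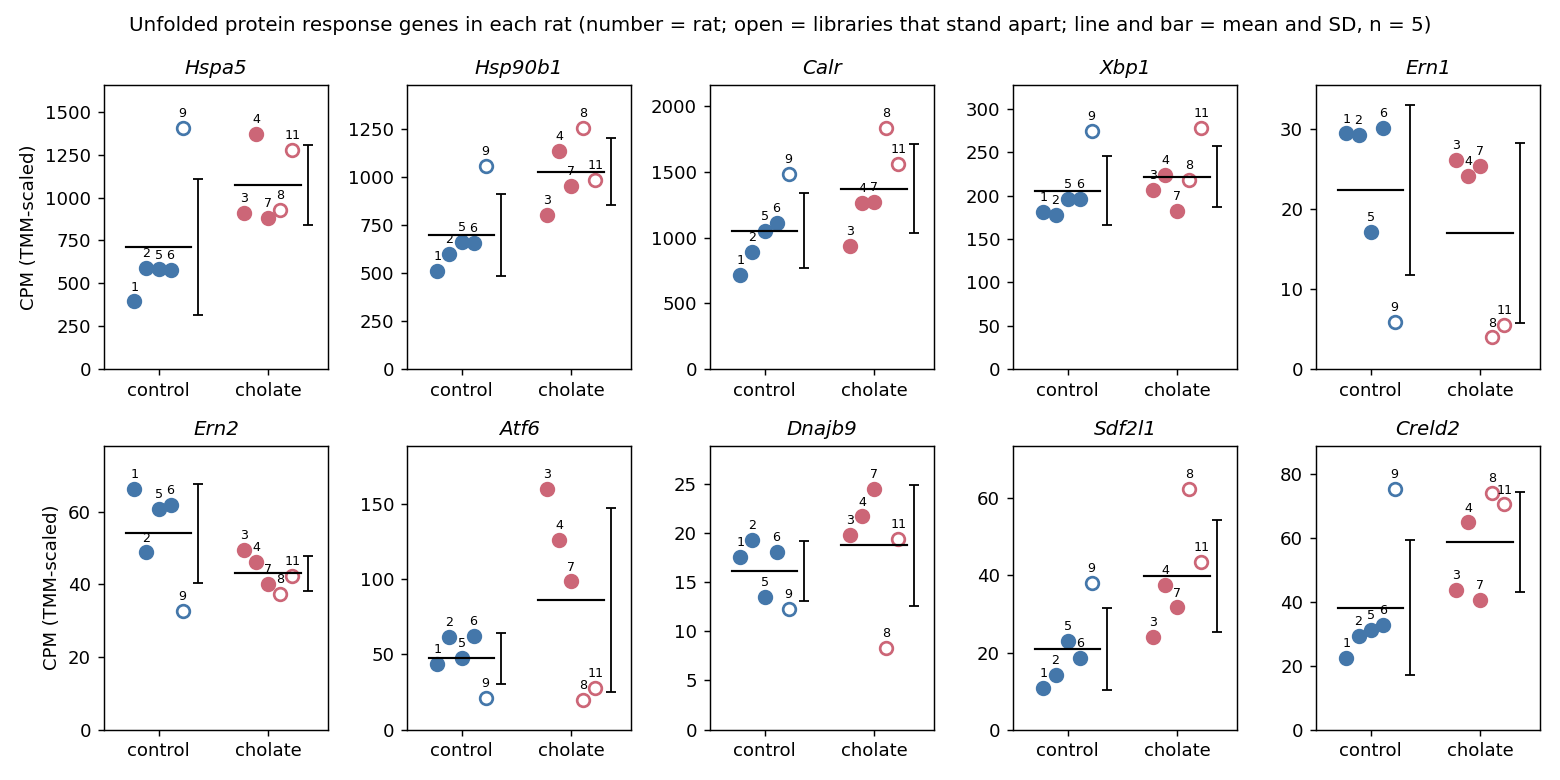
Level of each gene in each rat, in TMM-scaled CPM on axes that start at 0, with controls in blue and cholate in red. Numbers are rats, open points are the 3 libraries that stand apart, and the line and bar are the mean and SD of 5 rats. In Hspa5 the controls other than rat 9 lie between 394 and 588 CPM and the cholate rats between 882 and 1372 CPM.

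Among the sensors, Atf6 had the widest spread within a diet. Atf6 (Entrez 304962, rn6 chromosome 13, 89053457 to 89242531, minus strand) stood at 43.8, 61.3, 47.8, 62.4 and 20.9 CPM in control rats 1, 2, 5, 6 and 9, and at 159.6, 126, 98.4, 19.5 and 27.5 CPM in cholate rats 3, 4, 7, 8 and 11. Control rat 9 and cholate rats 8 and 11 were the lowest of their diets, and the other 3 cholate rats were all above the other 4 controls. Over all 10 rats the log2 fold change was 0.87 (SE 0.54, 95% interval -0.32 to 2.05, adjusted p = 0.323). Without the 3 libraries, Atf6 was higher on cholate by 1.27 (SE 0.18, adjusted p = 0.00202), from 53.8 ± 9.41 CPM (SD, n = 4) to 128 ± 30.7 CPM (SD, n = 3). With the long-transcript index of each library as a covariate over all 10 rats the change was 1.31 (SE 0.18, adjusted p = 0.000252). The 3 libraries alone gave 20.9 CPM in the 1 control and 19.5 and 27.5 CPM on cholate, with no test. Atf6 has 7298 bases of annotated exon, and the opposite-strand gene LOC100911728, which overlaps it, had at most 3 counts in a library.

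Ern1, the sensor present in most cell types, had no difference between the diets that exceeded the spread between rats. Ern1 (Entrez 498013, chromosome 10, 94588555 to 94682072, minus strand) stood at 29.5, 29.3, 17.2, 30.1 and 5.93 CPM in control rats 1, 2, 5, 6 and 9, and at 26.2, 24.1, 25.4, 3.94 and 5.47 CPM in cholate rats 3, 4, 7, 8 and 11. The 3 libraries that stand apart were the 3 lowest, and the diets overlapped. The change on the log2 scale was -0.39 over all 10 rats (SE 0.58, 95% interval -1.66 to 0.88, adjusted p = 0.717) and -0.05 without the 3 libraries (SE 0.19, 95% interval -0.47 to 0.38, adjusted p = 0.874). It turned to 0.29 (SE 0.10, adjusted p = 0.0276) with the long-transcript index as a covariate, so the direction depended on how the index was handled. Ern1 has 7164 bases of exon and overlaps the opposite-strand gene LOC108352147, which was not analysed here.

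Ern2, the IRE1 form of the gut epithelium, had a log2 fold change below 0 whichever rats were used, without passing the threshold. Ern2 (Entrez 365363, chromosome 1, 192126023 to 192142865, minus strand) stood at 66.3, 48.8, 60.8, 61.9 and 32.7 CPM in control rats 1, 2, 5, 6 and 9, and at 49.4, 46.2, 40.1, 37.3 and 42.4 CPM in cholate rats 3, 4, 7, 8 and 11. Of the controls, rats 1, 5 and 6 were above every cholate rat and rat 9 was below every one. On the log2 scale the difference was -0.33 (SE 0.19, 95% interval -0.74 to 0.09, adjusted p = 0.28), and -0.37 without the 3 libraries (SE 0.13, 95% interval -0.67 to -0.07, adjusted p = 0.0656). Over the 20 alternatives it ran from -0.47 to -0.16, and the lowest adjusted p was 0.0523.

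**Figure D3:**
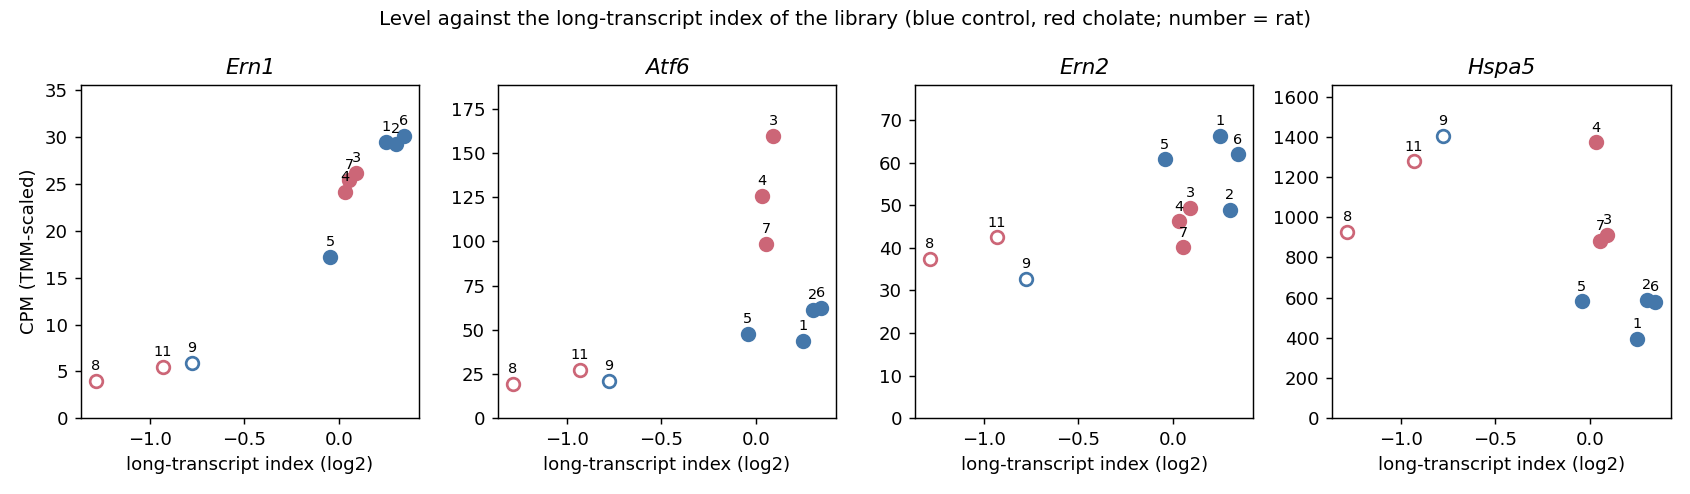
Level of Ern1, Atf6, Ern2 and Hspa5 in CPM against the long-transcript index of each library (log2, lower where long transcripts are low), with controls in blue, cholate in red and the 3 libraries that stand apart open. Ern1 and Atf6 are lowest in the 3 libraries with an index of -0.78 or less, and Hspa5 is not.

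Xbp1, the factor downstream of IRE1, had the log2 fold change closest to 0 over all 10 rats, while without the 3 libraries that of Ern1 was closer. Xbp1 (Entrez 289754, chromosome 14, 85753736 to 85758820, plus strand) stood at 182, 178, 197, 196 and 275 CPM in control rats 1, 2, 5, 6 and 9, and at 207, 224, 182, 218 and 278 CPM in cholate rats 3, 4, 7, 8 and 11. The highest rat of each diet, control rat 9 and cholate rat 11, was at nearly the same level. Cholate over control, the log2 fold change was 0.11 (SE 0.15, 95% interval -0.23 to 0.45, adjusted p = 0.69), and 0.15 without the 3 libraries (95% interval -0.08 to 0.37, adjusted p = 0.296). With the index as a covariate it was -0.01, so no direction can be given. Counts per gene do not separate the spliced from the unspliced mRNA, so IRE1 activity was not measured.

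Hspa5, the most studied ER chaperone and a partner that holds the sensors inactive, was higher in all 5 cholate rats than in 4 of the 5 controls. Hspa5 (Entrez 25617, chromosome 3, 13838304 to 13842763, plus strand) stood at 394, 588, 581, 579 and 1405 CPM in control rats 1, 2, 5, 6 and 9, and at 913, 1372, 882, 928 and 1277 CPM in cholate rats 3, 4, 7, 8 and 11. Control rat 9 had the highest level of all 10 rats. Across the 10 rats the change was 0.60 (SE 0.31, 95% interval -0.08 to 1.28, adjusted p = 0.229). Without control rat 9 it was 0.99 (SE 0.19, adjusted p = 0.00852), and without the 3 libraries it was 1.00 (SE 0.19, adjusted p = 0.00629), from 536 ± 94.5 (SD, n = 4) to 1056 ± 275 CPM (SD, n = 3). With the long-transcript index as a covariate it was 0.49 (adjusted p = 0.187).

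Hsp90b1, an ER chaperone of the HSP90 family, had a narrower spread. Hsp90b1 (Entrez 362862, chromosome 7, 27226570 to 27240533, minus strand) stood at 509, 598, 661, 658 and 1060.0 CPM in control rats 1, 2, 5, 6 and 9, and at 802, 1138, 955, 1255 and 985 CPM in cholate rats 3, 4, 7, 8 and 11. Every cholate rat was above controls 1, 2, 5 and 6, and control rat 9 was above cholate rats 3, 7 and 11. The fitted log2 change was 0.56 (SE 0.20, 95% interval 0.12 to 1.00, adjusted p = 0.0888). Without control rat 9 it was 0.74 (adjusted p = 0.00855), and without the 3 libraries 0.69 (SE 0.14, adjusted p = 0.00802). It was also past 0.05 with the index as a covariate (0.41, adjusted p = 0.0314).

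Calr, a calcium-binding lectin chaperone for glycoproteins, had the highest level per length of the 10 genes and no call under any of the 20 alternatives. Calr (Entrez 64202, rn6 chromosome 19, 25956771 to 25961666, minus strand in rn6 but plus strand in GRCr8) stood at 718, 891, 1053, 1111 and 1485 CPM in control rats 1, 2, 5, 6 and 9, and at 938, 1263, 1268, 1831 and 1558 CPM in cholate rats 3, 4, 7, 8 and 11. The diets overlapped with and without the 3 libraries. Over all rats the log2 fold change was 0.38 (SE 0.22, 95% interval -0.10 to 0.87, adjusted p = 0.278) and 0.32 without the 3 libraries (95% interval -0.07 to 0.71, adjusted p = 0.19).

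Sdf2l1, which keeps the BiP cycle with its J proteins running, had the largest log2 fold change of the 10 genes over all rats. Sdf2l1 (Entrez 680945, chromosome 11, 88122271 to 88124513, plus strand) stood at 10.8, 14.3, 23.0, 18.6 and 38.0 CPM in control rats 1, 2, 5, 6 and 9, and at 24.0, 37.5, 31.7, 62.4 and 43.5 CPM in cholate rats 3, 4, 7, 8 and 11. Control rat 9 again stood above the other controls and above cholate rats 3, 4 and 7. The change on the log2 scale was 0.93 (SE 0.35, 95% interval 0.16 to 1.70, adjusted p = 0.103), and 0.92 without the 3 libraries (SE 0.26, adjusted p = 0.0265). Without control rat 9 alone it was 1.22 (adjusted p = 0.02), and with the index as a covariate 0.60 (adjusted p = 0.0251).

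Creld2, an ER protein with isomerase-like motifs that is secreted under stress, was, like Hspa5, at its highest in control rat 9. Creld2 (Entrez 362978, chromosome 7, 129812746 to 129819641, plus strand) stood at 22.4, 29.5, 31.2, 32.9 and 75.4 CPM in control rats 1, 2, 5, 6 and 9, and at 43.8, 64.9, 40.6, 74.3 and 70.6 CPM in cholate rats 3, 4, 7, 8 and 11. The other 4 controls were below every cholate rat, and control rat 9 was just above cholate rat 8. On the log2 scale the difference was 0.62 (SE 0.32, 95% interval -0.09 to 1.33, adjusted p = 0.233). It was 1.00 without control rat 9 (adjusted p = 0.0116), 0.80 without the 3 libraries (SE 0.20, adjusted p = 0.0158), and 0.38 with the index as a covariate (adjusted p = 0.149).

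Dnajb9, a BiP co-chaperone that returns IRE1 to its resting state, had 1 low cholate rat. Dnajb9 (Entrez 24908, chromosome 6, 64165913 to 64170122, minus strand) stood at 17.5, 19.3, 13.5, 18.1 and 12.3 CPM in control rats 1, 2, 5, 6 and 9, and at 19.8, 21.7, 24.5, 8.33 and 19.4 CPM in cholate rats 3, 4, 7, 8 and 11. Cholate rat 8 was the lowest of all 10 rats, and the other 4 cholate rats were above every control. Cholate over control, the log2 fold change was 0.22 (SE 0.26, 95% interval -0.36 to 0.80, adjusted p = 0.645) and 0.39 without the 3 libraries (SE 0.15, 95% interval 0.05 to 0.73, adjusted p = 0.079). With the index as a covariate it was 0.46 (adjusted p = 0.0489).

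**Figure D4:**
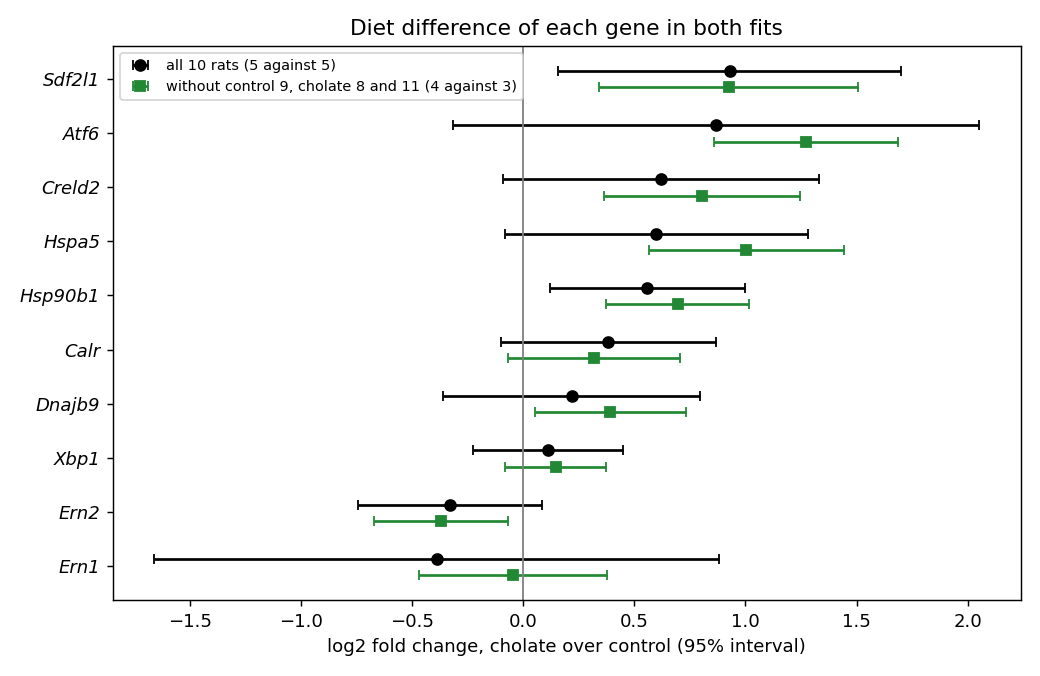
Log2 fold change of cholate over control with its 95% interval for each of the 10 genes, over all 10 rats (black) and without control rat 9 and cholate rats 8 and 11 (green). The intervals of Atf6 and Ern1 are the widest over all 10 rats, and the green intervals of Atf6, Hspa5, Hsp90b1, Creld2 and Sdf2l1, the genes past an adjusted p of 0.05, lie above 0, as does that of Dnajb9, which was not past it.

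The diets overlapped in all 10 genes over all rats, while 13.1% of all genes tested had diets that did not overlap (6.3% higher on cholate). Without the 3 libraries they did not overlap in 6 of the 10, Hspa5, Hsp90b1, Atf6, Dnajb9, Sdf2l1 and Creld2, each higher on cholate. Among all genes this was so in 40.9%, and in 18.9% with cholate higher. Per kilobase of coding sequence, the mean level over the 5 controls was 840.4 CPM for Calr, 361 for Hspa5, 289 for Hsp90b1 and 179.9 for Xbp1. The others stood at 36.5 for Creld2, 31.6 for Sdf2l1, 24.1 for Dnajb9, 24.0 for Atf6, 18.9 for Ern2 and 7.48 for Ern1. How reads were counted is not known. Exon exceeds coding sequence unequally, with 7298 against 1971 bases in Atf6 and 2967 against 2862 in Ern2. The order of these lower genes therefore depends on the length used. Hspa5 and Hsp90b1 did not differ beyond their SD of 202 and 87.7 CPM per kilobase, nor did neighbours from Creld2 down to Ern2, whose SD ran from 4.58 to 20.1. On cholate the order among the highest 4 was the same, from 1096 ± 270.2 CPM per kilobase for Calr to 194 ± 30.8 for Xbp1.

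Likeness between the genes from rat to rat was tested within diets. After subtraction of the diet means, Hspa5 and Creld2 had a Pearson r of 0.98 over the 7 rats (exact permutation p = 0.0417, adjusted p = 0.469) and a Spearman rho of 0.86 (exact permutation p = 0.0764). Hsp90b1 and Sdf2l1 had an r of 0.91 (exact permutation p = 0.00694, the smallest that 7 rats allow, adjusted p = 0.3125) and a rho of 0.93 (exact permutation p = 0.0139). Of the 45 pairs over the 7 rats, the first of these had the highest r and the second the smallest p. An r above 0 was found in 22 of the 45, the median was -0.01 and the lowest -0.67. After adjustment over 45 pairs, 0 passed. With 7 rats, even the pair at the smallest possible exact permutation p had an adjusted p of 0.3125. This adjustment could thus hardly pass any pair, and the 0 says little about likeness. Leaving out the 2 farthest of 7 rats would leave under 6, so it was not done. Over all 10 rats 24 of the 45 pairs passed, but the 3 libraries that stand apart form a cluster of their own, so no r over 10 rats is given. Without the 2 rats farthest from the median of the first gene no pair passed. Leaving out 2 rats also cut the number of permutations, so that a lone pair could not have passed. This 0 therefore says little about likeness too. As a description of likeness among 9273 named genes with a mean of at least 5 CPM, the 6 most like Hspa5 in their deviations from the diet means over 10 rats were Ube2n, Dnajb11, Pdia4, Gmps, Creld2 and Rapgef3. Over the 7 rats these had r from 0.71 to 0.98. Dnajb11 is a BiP co-chaperone and Pdia4 a disulfide isomerase of the ER. For Ern2 they were Mapkbp1, Srebf2, Alms1, Mettl15, Rhobtb2 and Crtc1, with r from 0.62 to 0.83 over the 7. The ranking over 10 rats shares the division between the 3 libraries and the rest. The 7 rats are among the 10 that set the ranking, so the r over 7 rats is no separate check of it.

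Of 94 tested genes in 7 other lists, which hold 97 genes of the ER folding system and its neighbours, 11 passed an adjusted p of 0.05, all higher on cholate, where 13.8% of all genes passed it and 6.48% were higher. Among the other sensors and transducers 0 of 11 measured genes passed, with a median log2 fold change of -0.01. The ATF6 paralog Atf6b had the smallest adjusted p (0.34, adjusted p = 0.225), and the PERK kinase gene Eif2ak3 stood at 61.3 ± 4.83 CPM in controls and 64.6 ± 15.3 CPM on cholate. Among 16 further ER chaperones and co-chaperones 1 rose, the BiP co-chaperone Dnajc3, and the median was 0.22. Dnajc3 stood at 93.1, 97.2, 99.6, 112 and 127 CPM in control rats 1, 2, 5, 6 and 9, and at 128, 146, 124, 176 and 163 CPM in cholate rats 3, 4, 7, 8 and 11, a log2 fold change of 0.48 (SE 0.14, adjusted p = 0.0378). Cholate rat 7 was just below control rat 9, and the other 4 cholate rats were above every control. With 1 rat removed at a time, 3 of 10 fits kept the call, and Dnajc3 overlaps the opposite-strand gene LOC108352976. None of 14 disulfide isomerases and oxidases passed (median 0.22), the nearest being the isomerase Pdia6, from 242 ± 51.0 to 364 ± 79.2 CPM (0.59, adjusted p = 0.0566).

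In ER-associated degradation, which returns misfolded proteins to the cytosol, 2 of 15 measured genes rose (6.48% of all genes did) and the median was 0.21. Vcp, the ATPase that extracts them, rose from 497 ± 48.1 to 701 ± 44.2 CPM (0.50, SE 0.10, adjusted p = 0.0104). Every cholate rat was above every control for Vcp, which held for 6.3% of all genes tested. Derl1, a channel protein of that pathway, rose from 21.9 ± 2.72 to 31.8 ± 3.91 CPM (0.54, SE 0.14, adjusted p = 0.029). In the translocon and N-glycosylation list, 4 of 20 genes rose (6.48% of all genes did), with a median of 0.38. The oligosaccharyltransferase subunit Rpn2 rose by 0.61 (adjusted p = 0.0201), the catalytic subunit Stt3a by 0.36 (adjusted p = 0.0311), and the channel subunits Sec61a1 by 0.44 (adjusted p = 0.0222) and Sec61b by 0.73 (adjusted p = 0.0483). Rpn2 and Stt3a overlap opposite-strand genes. With 1 rat removed at a time, the call held in 10 of 10 fits for Vcp, 7 for Rpn2, 6 for Derl1 and for Sec61a1, and 3 for Stt3a and for Sec61b.

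Of 7 targets of the PERK and ATF4 branch 1 rose past an adjusted p of 0.05, where 6.48% of all genes did. It was the pseudokinase Trib3, from 1.77 ± 0.181 to 5.28 ± 1.82 CPM (1.57, adjusted p = 0.00333). The stress factor Ddit3, which overlaps Mars and Mbd6, was at 22.5 ± 4.38 CPM in controls and 27.9 ± 18.0 CPM on cholate (0.31, adjusted p = 0.65), and at -0.41 without the 3 libraries (adjusted p = 0.0614). The list's median was 0.31 over all 10 rats and -0.27 without the 3 libraries. Among 11 measured cytosolic and mitochondrial chaperones 3 rose, against 6.48% of all genes. All 11 had a log2 fold change above 0 (median 0.46), as did 48.9% of all genes. The mitochondrial chaperonin Hspd1 rose from 104 ± 19.3 to 189 ± 26.5 CPM (0.86, SE 0.15, adjusted p = 0.00527). Its cofactor Hspe1 rose by 1.07 (SE 0.19, adjusted p = 0.00536), from a mean of 70.1 ± 12.1 CPM to one of 148 ± 41.1 CPM, and overlaps Mob4 in the same orientation. The cytosolic chaperonin subunit Cct2 rose from 207 ± 14.7 to 277 ± 12.3 CPM (0.43, adjusted p = 0.0128). All 3 remained past an adjusted p of 0.05 in each of the 20 alternatives.

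Without the 3 libraries, 32 genes of these lists passed an adjusted p of 0.05 in place of 11, and 13.6% of all genes were higher and 15.8% lower. Every gene named above as risen over all 10 rats passed here too, and in the same direction. The rats of this fit are among those 10, so it is no separate check. Dnajc3 was higher by 0.43 (adjusted p = 0.0148), Vcp by 0.55 (adjusted p = 0.00318) and Derl1 by 0.39 (adjusted p = 0.0394). In the translocon list the values were 0.55 for Rpn2 (adjusted p = 0.0122), 0.40 for Stt3a (adjusted p = 0.0187), 0.56 for Sec61a1 (adjusted p = 0.00606) and 0.55 for Sec61b (adjusted p = 0.0179). Trib3 was higher by 1.42 (adjusted p = 0.00187), Hspd1 by 0.90 (adjusted p = 0.0036), Hspe1 by 0.96 (adjusted p = 0.00135) and Cct2 by 0.50 (adjusted p = 0.00418). Pdia6, not past the threshold over all 10 rats, passed here (0.56, adjusted p = 0.0218), and Atf6b passed in neither fit (0.18, adjusted p = 0.192). Eif2ak3 was at 0.13 (adjusted p = 0.53). Among the sensors and transducers 1 of 11 passed, the adaptor Traf2, which was lower (-0.41, adjusted p = 0.0333). Among the further ER chaperones 6 of 16 were higher and 1 lower. The higher ones included the BiP exchange factor Hyou1 (0.82, adjusted p = 0.00807) and the disulfide reductase Dnajc10 (0.84, adjusted p = 0.00556), and the lower was another exchange factor, Sil1 (-0.52, adjusted p = 0.00675). Of the translocon list 8 were higher, and Sec62 was lower (-0.50, adjusted p = 0.00326). Traf2, Hyou1, Dnajc10, Sil1, Sec62, Eif2ak3 and Ddit3, and the markers Muc2, Spink4, Klk1, Tff3, Creb3l4, Jchain and Sdc1 below, were named after their values were seen.

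**Figure D5:**
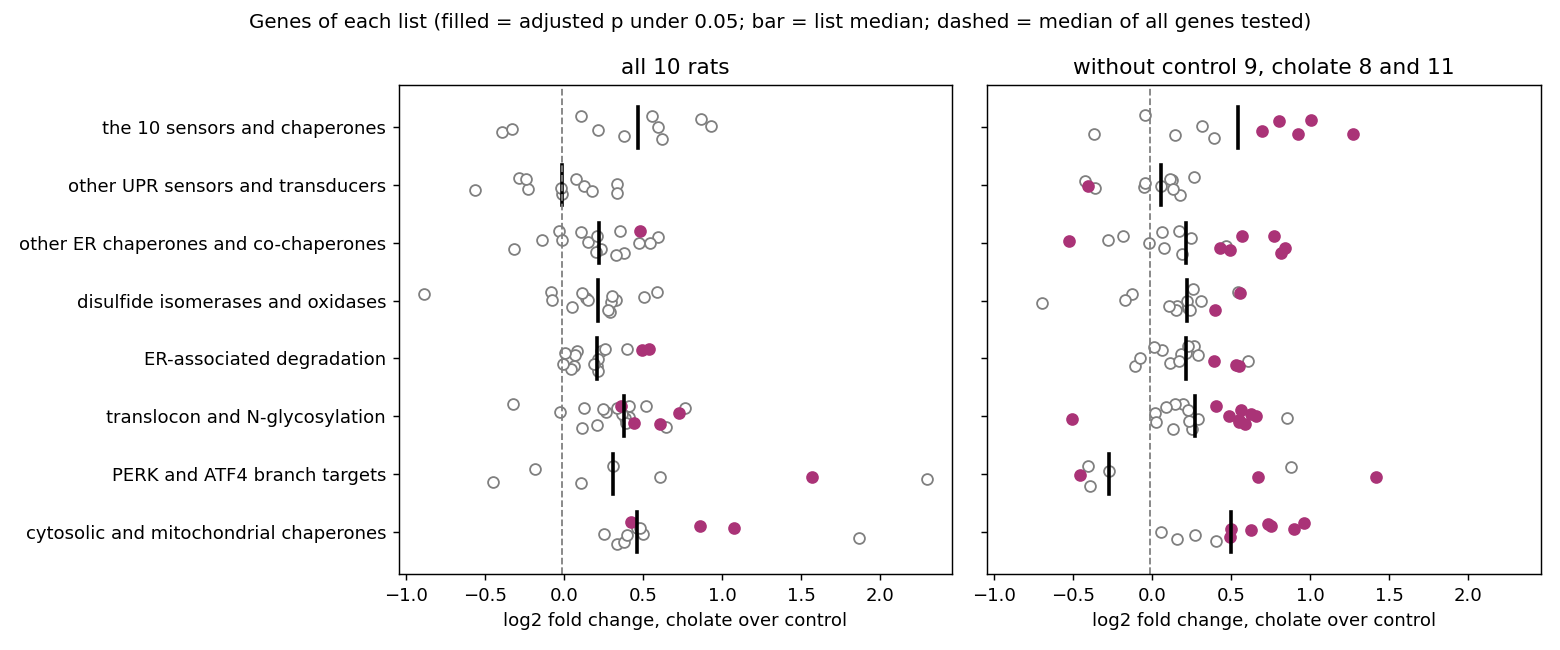
Log2 fold change of each measured gene of the 8 lists over all 10 rats (left) and without control rat 9 and cholate rats 8 and 11 (right). Filled points passed an adjusted p of 0.05, bars are list medians and the dashed line is the median of all genes tested. The median of the 10 sensors and chaperones was 0.47 on the left and 0.54 on the right.

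Markers of cell types were also read, and whether they vary with the 10 genes from rat to rat was not tested. The summed level of 11 goblet cell markers was 5457 to 20014 CPM in controls and 4840 to 22309 CPM on cholate, with the highest control sum in rat 9 and the highest cholate sums in rats 8 and 11. Among these the mucin Muc2 had a log2 fold change of 0.38 (adjusted p = 0.67), Spink4 rose by 4.76 (adjusted p = 0.0039) and Klk1 fell by 1.38 (adjusted p = 0.0147). Of the 11, no others passed an adjusted p of 0.05 over all 10 rats. Without the 3 libraries 1 passed as higher and 3 as lower, where 13.6% of all genes were higher and 15.8% lower. The markers that passed there were Tff3, Klk1, Spink4 and Creb3l4. The 7 markers of differentiated colonocytes summed to 3534 to 5206 CPM in controls and 7495 to 12624 CPM on cholate. Of 8 plasma and B cell markers, whose cells are also rich in ER chaperones, 2 passed the filter on low counts, and Jchain was at most 4.14 CPM in any rat. Most of that list's sum, 136 to 214.5 CPM in controls and 151 to 338 CPM on cholate, came from Sdc1, which epithelium also expresses. Sdc1 had a log2 fold change of 0.31 over all rats (adjusted p = 0.396) and was higher by 0.62 without the 3 libraries (adjusted p = 0.0343). The 9 markers of other leukocytes summed to 14.7 to 20.2 and 13.98 to 26.9 CPM. Stromal, muscle and vessel markers summed to 48.6 to 70.2 CPM in controls and 12.0 to 15.6 CPM on cholate, with Col1a2 at 0, and 6 neuron and glia markers to at most 1.48 CPM. The 5 enteroendocrine markers summed to 203 to 273 and 276 to 523 CPM, and the 4 tuft cell markers to 51.9 to 73.6 and 32.7 to 55.5 CPM. The part of goblet cells, colonocytes and stroma in the differences of the 10 genes was not tested.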

How the data were processed

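Strand-specific poly(A) libraries were read on a HiSeq and aligned to rn6 with BWA 0.7.12-r1039 after bcl2fastq 1.8.4, per the submitters' processing notes and the labels' protocols. How reads were counted, and whether by strand, the sources used here do not say. Genes that overlap others are therefore uncertain. The authors deposited raw counts per gene, which all tests used, and a normalized signal (CPM on the TMM effective library size, edgeR 3.16.2), which served only to read their scaling factors. The deposited effective length equals the merged coding length in the annotation for 99.5% of genes and was used for levels per kilobase.

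Counts were filtered with filterByExpr, scaled by TMM and tested by diet in edgeR (quasi-likelihood F test, robust, version 4.0.16, limma 3.58.1, DESeq2 1.42.0, R 4.3.3), adjusted by Benjamini-Hochberg over 12385 genes. Each SE is the absolute log2 change divided by the root of its F. On simulated data for this comparison (12542 genes fitted) the wide threshold found 39 of 100 genes changed by 1 and 100 of 100 changed by 2 on the log2 scale, with 3 false calls. The simulated counts had the same spread between rats for every gene, and the changed genes had a mean of at least 5 CPM. They lacked the pattern of the 3 libraries that stand apart, so these figures may not hold for the real libraries. The long-transcript index is the median log2 deviation of genes with at least 5394 bases of exon minus that of genes with up to 1584, over 9762 genes. Totals of 14337356 to 45285762 counts allow up to 0.209 CPM for a count of 0 in the shallowest library. Such floors cover counting error only. Each rat is a separate animal.

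The members, lists and tests were chosen with earlier results of these data known. Named were all 10 members, of each other list up to 4 called genes or the one with the smallest adjusted p, and the 6 genes most like Hspa5 and Ern2, leaving out placeholder symbols. Alternatives were DESeq2 size factors, library size alone, other filters, DESeq2, the edgeR exact test, limma-voom, no robust estimation and leaving out each rat. Those added later left out 3 libraries or added the index as a covariate.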

Additional observations from a re-analysis of the deposited data

Results flagged for a closer look

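In 46 sets of 5 rats (23 genes in 2 diets), 5 had a highest rat far from the other 4 by Dixon's criterion, which flags about 1 set in 20 by chance. Of these, 4 were control rat 9, a library low in long transcripts. Hspa5 was at 1405 CPM there against 394 to 588 CPM in the other controls. Hsp90b1 was at 1060.0 CPM against 509 to 661 CPM. Xbp1 was at 275 CPM against 178 to 197 CPM, and Creld2 at 75.4 CPM against 22.4 to 32.9 CPM. In cholate rat 8, also low in long transcripts, Hspe1 was at 219.5 CPM against 117 to 140.0 CPM in the other cholate rats. Goblet cell markers were also highest in control rat 9 among the controls, at a summed 20014 CPM. The cause of these values was not tested.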

How the results depend on the processing

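No paired analysis was possible because each rat, with its own number, ate 1 diet. The count of the 10 genes past an adjusted p of 0.05 was 0 in the main test and in 7 alternatives that kept all rats, 2 by DESeq2, 0 to 4 when 1 rat was left out (4 without control rat 9), 5 without the 3 libraries and 5 with the index as a covariate. By the study's criteria it was 0, but 2 without the 3 libraries and 1 with the index. Genes called by these criteria over the whole table numbered 398, against 242 with a mean of at least 5 CPM, 788 by DESeq2, 754 by the exact test, 168 to 450 leaving out 1 rat, 840 without the 3 libraries and 1099 with the index. Past an adjusted p of 0.05 were 1704, against 2669 by DESeq2, 969 to 2120 leaving out 1 rat, 3707 without the 3 libraries and 5412 with the index. In the other lists 11 genes passed, against 18 by DESeq2, 5 to 21 leaving out 1 rat, 32 without the 3 libraries and 39 with the index. Of the 45 pairs 24 passed over 10 rats, 21 with library size alone, 0 without the 2 farthest rats and 0 without the 3 libraries. The last of these was nearly fixed in advance by the small number of rats, which also limited the one before it. With the index, Xbp1 turned to -0.00821 and Ern1 to 0.29. The cause was not tested. Library size alone moved the median of all genes to -0.08 from -0.01. The SE of the 10 genes, 0.15 to 0.58 over all rats, limits the changes that could be detected.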

Other observations

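The ERSE lay in the windows of 14 genes tested, 9 of them outside the 10 genes described. Over all 10 rats 3 of these 9 rose on cholate, where 13.8% of all genes tested passed an adjusted p of 0.05 and 6.48% were higher. They were Zfand2a, a zinc finger protein known from the response to arsenite (1.37, adjusted p = 0.00933), Birc5, the mitotic protein survivin (1.01, adjusted p = 0.0241), and Dnajc3. The other 6 did not pass over all 10 rats, with log2 fold changes from -0.89 for Ero1b to 0.39 for Hnrnpa3, and 6 of the 9 were above 0 (median 0.24). Without control rat 9 and cholate rats 8 and 11, 4 of the 9 passed, all higher, where 29.4% of all genes passed and 13.6% were higher. These were Zfand2a (1.64, adjusted p = 0.00232), Birc5 (0.98, adjusted p = 0.00574), Hnrnpa3 (0.50, adjusted p = 0.0128) and Dnajc3.

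The ERSE-II lay in 12 genes tested, of which 2 passed over all 10 rats, where 13.8% of all genes tested passed an adjusted p of 0.05. Rcl1 rose (0.65, adjusted p = 0.0333) and Ttll10 fell (-1.27, adjusted p = 0.0292). The other 10 included the ER genes Dnajb11 (0.36), Herpud1 (0.40) and Hyou1 (0.48). Without the 3 libraries 5 of the 12 passed, where 29.4% of all genes passed and 13.6% were higher. Rcl1 (0.82, adjusted p = 0.0072), Hyou1 (0.82, adjusted p = 0.00807) and Dnajb11 (0.49, adjusted p = 0.0428) were higher. Fam26f (-1.59, adjusted p = 0.00509) and Ttll10 (-1.39, adjusted p = 0.0172) were lower. These genes were named after their values were seen, and a match of letters is not a measured site.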
